A study of Mus musculus with 15 samples.

Results

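The miR-15/16 seed family was followed across 3 diets in mouse liver. Its members were taken from the array by name, as the 5p and 3p arms of miR-15a, miR-15b, miR-16, miR-195a, miR-322 and miR-497, by a rule that uses no measured value. This gave 10 of the 696 mouse miRNAs on the array, 6 of them 5p arms and 4 of them 3p arms (miR-15a-3p, miR-15b-3p, miR-16-1-3p and miR-322-3p). Livers came from male mice, labelled as strain B6C57/J, whose diets began at 1 year of age and lasted for life. The 5 standard diet (SD) mice ate AIN-93G freely, the 5 caloric restriction (CR) mice received that diet at 40% restriction, and the 5 metformin (Met) mice ate it freely with 0.1% w/w metformin added. Each mouse had 1 Agilent array, on which RNA labeled with Cy3 is caught by short probes and read as the brightness of spots. The comparisons asked how levels of the family differ between CR and SD, between Met and SD, and between the 2 interventions.

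A miRNA is cut from a hairpin, and one arm of the hairpin is usually kept as the mature strand. The mature strand guides Argonaute proteins to messenger RNAs, mainly through its seed, the bases from 2 to 8. miR-15 and miR-16 are known as repressors of the cell cycle. They lower D-type and E-type cyclins and the kinases that act with them, as well as the survival factor BCL2. miR-195 and miR-497 are made from one cluster and are known to slow the proliferation of liver tumor cells, and rodent miR-322 is the counterpart of human miR-424.

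The mature sequences of the 6 5p arms are shown because the shared seed defines the family, while the bases after it differ between members. They were taken from RefSeq annotation of GRCm38.p6 and are written 5′ to 3′ with the seed in capitals. All 10 members matched that annotation by name, with the array's miR-497-5p matched to miR-497a-5p. miR-503-5p, made from the same transcript as miR-322, is added to show a seed with a different last base.
miR-15a-5p: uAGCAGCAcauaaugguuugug
miR-15b-5p: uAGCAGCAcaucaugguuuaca
miR-16-5p: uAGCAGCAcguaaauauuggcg
miR-195a-5p: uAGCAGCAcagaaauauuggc
miR-497-5p: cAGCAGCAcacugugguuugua
miR-322-5p: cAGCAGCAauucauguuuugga
miR-503-5p: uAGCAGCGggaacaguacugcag

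In the RefSeq table, 10 of 1679 mature mouse miRNAs carried the seed AGCAGCA, and 6 of them were on the array. miR-15a-5p and miR-15b-5p were identical at 18 of 22 positions, and miR-16-5p and miR-195a-5p at 19 of 21. miR-15a-5p and miR-16-5p were identical at 16 of 22 positions, and miR-16-5p and miR-497-5p at 11 of 22. Probes for such close sequences may bind each other's targets, and cross-hybridization was not tested.

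The family comes from 4 loci. Mir15a and Mir16-1 lie on the minus strand of chromosome 14 within Dleu2, a noncoding host gene. Mir15b and Mir16-2 lie on the plus strand of chromosome 3 within Smc4, which encodes a condensin subunit. Because Mir16-1 and Mir16-2 give the same mature miR-16-5p, its level sums the output of both loci. Mir195a and Mir497 lie on the plus strand of chromosome 11 with no host gene in the annotation used. Mir322 and Mir503 lie on the minus strand of chromosome X within the noncoding gene C430049B03Rik.

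Of the 10 members, 5 were detected by the scanner software on all 15 arrays, namely mmu-miR-15a-5p, mmu-miR-15b-5p, mmu-miR-16-5p, mmu-miR-195a-5p and mmu-miR-497-5p. miR-322-5p was detected on 4 SD, 2 CR and 4 Met arrays and was not tested. The 4 3p arms were detected on 0 of 15 arrays. A miRNA entered the test, as 178 did, when 1 diet or more had it detected in each of its 5 mice, and all 5 tested members passed this filter in every group. Levels are given as z-scores, the natural log of spot brightness centered on the mean of all spots on its array and scaled by their spread (1 standard deviation). A z-score therefore gives a position within the array and carries no unit of mass.

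The arrays of CR mice 2 and 3 stood apart. The miRNAs detected on all arrays had a median log2 total gene signal of 6.14 and 5.73 there, against 6.28 to 6.75 in the other 3 CR mice, 6.42 to 7.14 in SD and 6.51 to 6.94 in Met. CR mouse 4 (6.28) was also below every SD and every Met mouse. Total gene signal is the software's background-subtracted brightness summed over the probes of a miRNA, before any scaling between arrays. The 5 positive controls of CR mice 2 and 3 lay within or above their SD ranges. The control hur_2 read 128807 in CR mouse 2 and 91097 in CR mouse 3, against 79059 to 85686 in SD, and the control mr_1 read 2009 and 1746, against 1544 to 1952 in SD. Slide 1 held the SD mice with Met mice 1 to 3, and slide 2 the CR mice with Met mice 4 and 5, so that only Met links the slides. The part of slide and of low overall signal in the results that follow was not tested except where values without CR mice 2 and 3 or within a slide are given.

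Between CR and SD, 2 of the 5 tested members, miR-15a-5p and miR-16-5p, were lower in CR. miR-195a-5p and miR-497-5p had slightly lower means that did not pass the test, and the mean of miR-15b-5p was slightly higher in CR without passing it. A miRNA met the criteria at p of 0.05 or less and a Benjamini-Hochberg adjusted p of 0.3 or less in limma, together with an absolute Z ratio of 1.5 or more. The Z ratio is the difference in mean z-score over the standard deviation of that difference across all 696 miRNAs. Among all tested miRNAs, 14.6% met the criteria as lower in CR than in SD, and 2.81% as higher. The median difference was -0.0884 for the 5 members and -0.0161 for all 178 tested.

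miR-15a-5p had z-scores of 1.13, 1.28, 1.56, 1.15 and 1.30 in SD mice 1 to 5. In CR mice 1 to 5 it had z-scores of 1.13, 0.174, 0.191, 0.810 and 1.18. CR mice 2 and 3 were far below every SD mouse, CR mouse 4 was also below them, and CR mice 1 and 5 lay within the SD range. The mean fell from 1.28 ± 0.174 in SD to 0.698 ± 0.491 in CR (SD of 5 mice each). The difference was -0.585 (SE 0.176, 95% interval -0.959 to -0.211), with a limma adjusted p of 0.0241 and a Z ratio of -3.52. The CR mean was lower than the SD mean under each of 17 other ways of processing these arrays, and the criteria were met in 14 of them. They were missed with the 75th percentile of all probes as the scale and with both versions of total gene signal, the background-subtracted measure. In each of these only the Z ratio missed its limit. The other filters, tests, cutoff and replicate block among the 17 reuse these same means, so they could not change the direction.

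miR-16-5p had z-scores of 1.23, 1.46, 1.63, 1.31 and 1.497 in SD mice 1 to 5. Its z-scores in CR mice 1 to 5 were 1.41, 0.549, 0.568, 1.04 and 1.38. The same 3 CR mice lay below the SD range and the same 2 within it. The mean was 1.43 ± 0.160 in SD and 0.990 ± 0.420 in CR (SD, n = 5). The difference was -0.437 (SE 0.156, 95% interval -0.767 to -0.106), with a limma adjusted p of 0.0440 and a Z ratio of -2.63. The CR mean was again lower under all 17 other ways of processing, but the criteria were met in only 11 of them. As for miR-15a-5p, the ways that reuse the same means could not change the direction. Without CR mice 2 and 3, an omission chosen after their values were seen, the difference in miR-16-5p shrank to -0.150 (adjusted p = 0.372) and no longer met the criteria. For miR-15a-5p it shrank to -0.241 (adjusted p = 0.161, Z ratio -2.10), which still met them. CR mouse 4, whose overall signal was also below that of every SD mouse, stayed in this fit. With the slide as a block, miR-15a-5p differed by -0.695 and miR-16-5p by -0.562, each with an adjusted p of 0.257, and only miR-15a-5p met the criteria.

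miR-15b-5p, which shares its seed with both and its locus with one copy of miR-16, had z-scores of 0.677, 0.650, 0.838, 0.585 and 0.838 in SD mice 1 to 5. In CR mice 1 to 5 its z-scores were 0.815, 0.595, 0.642, 0.740 and 0.940. All CR mice but mouse 5 lay within the SD range. The difference was 0.0289 (SE 0.0744, 95% interval -0.129 to 0.187), with a limma adjusted p of 0.797. The 2 probes of miR-15b-5p had means of 0.520 in SD and 0.518 in CR for one probe, and 0.915 in SD and 0.9755 in CR for the other. With normexp background correction miR-15b-5p met the criteria as higher in CR (Z ratio 1.58, adjusted p = 0.0165), whereas its direction turned with the slide as a block and with total gene signal.

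miR-195a-5p and miR-497-5p were nearer to background. miR-195a-5p had z-scores from -0.00353 to 0.0865 in SD, and 0.0532, -0.170, -0.142, -0.0748 and 0.0888 in CR mice 1 to 5. CR mice 2, 3 and 4 were again the lowest, and in mice 2 and 3 none (0%) of its spots was well above background. Its difference from SD was -0.0884 (SE 0.0457, limma adjusted p = 0.154). miR-497-5p ranged from -0.125 to -0.0449 in SD and from -0.150 to -0.0255 in CR, and its difference was -0.0149 (SE 0.0248, limma adjusted p = 0.673). Near background a z-score spans little, because the brightness that is not from the miRNA is part of it.

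**Figure D1:**
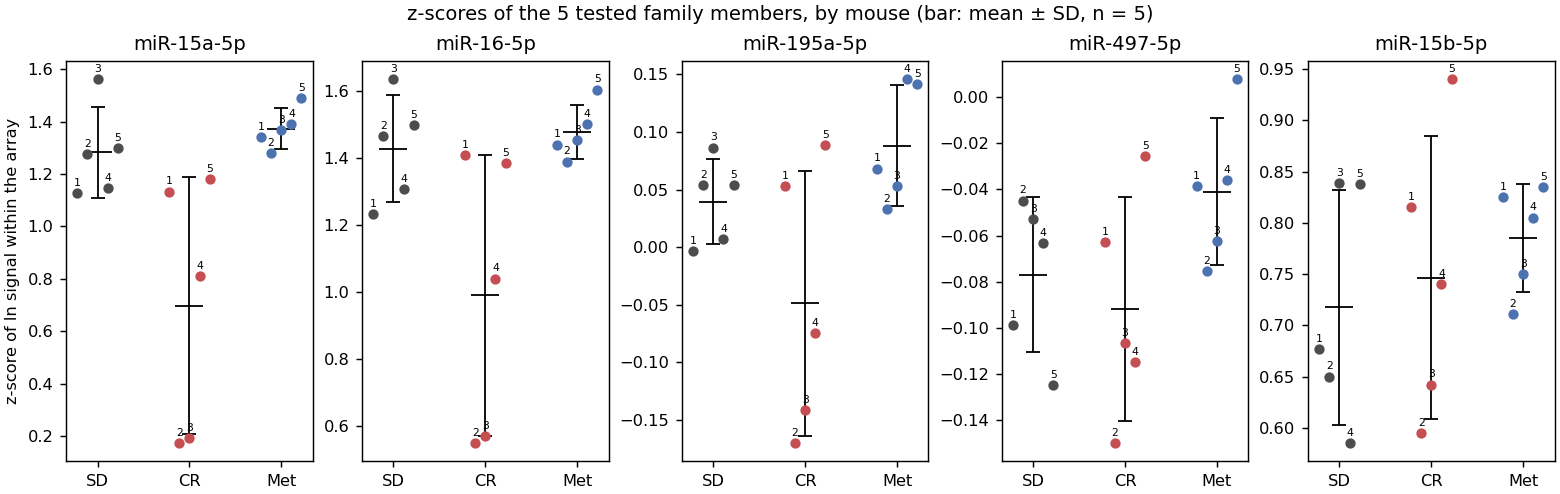
z-scores of the 5 tested members (vertical axes, no unit, each panel with its own range) in the SD, CR and Met mice, with 1 numbered point per mouse and bars for the mean ± SD of 5 mice. CR mice 2 and 3 are the lowest of all mice for miR-15a-5p (0.174 and 0.191), miR-16-5p and miR-195a-5p, while for miR-15b-5p they lie within the SD range.

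Before scaling, CR mice 2 and 3 again had the lowest signals of miR-15a-5p and miR-16-5p, and also of miR-15b-5p. miR-15a-5p had total gene signals of 293, 321.8, 509, 292 and 359 in SD mice 1 to 5, and of 294, 53.8, 53.0, 181 and 321 in CR mice 1 to 5. Its mean was 1.96-fold higher in SD than in CR. In Met it ranged from 347 to 463, above every CR mouse.

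For miR-16-5p the total gene signal ranged from 351 to 592 in SD and from 418 to 562 in Met. It was 425, 119, 112, 253 and 427 in CR mice 1 to 5, and the SD mean was 1.66-fold the CR mean. For miR-15b-5p it ranged from 145 to 231 in SD, and was 208, 128, 122, 167 and 251 in CR mice 1 to 5. The SD mean of miR-15b-5p was 1.05-fold the CR mean, a much smaller gap than for its relatives.

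Before scaling, the dim members were also lowest in CR mice 2, 3 and 4. miR-195a-5p had signals from 41.6 to 59.2 in SD, from 48.8 to 70.0 in Met, and of 49.1, 7.92, 8.88, 18.3 and 58.0 in CR mice 1 to 5. miR-497-5p had signals from 17.3 to 37.3 in SD, from 32.9 to 45.3 in Met, and of 31.7, 11.03, 10.8, 13.9 and 40.0 in CR mice 1 to 5. On this scale CR mice 1 and 5 were within or above the SD range for both members. Tested on log2 total gene signal, miR-15a-5p differed between CR and SD by -1.34 (SE 0.459, limma adjusted p = 0.0812) and miR-16-5p by -0.93 (SE 0.349, adjusted p = 0.0942), with Z ratios of -1.36 and -0.943 that missed the limit of 1.5. The median difference over all tested miRNAs was -0.29 on this scale. After each array was scaled to its 75th percentile, that median was 0.28. The differences were then -0.77 for miR-15a-5p (limma adjusted p = 0.0405) and -0.37 for miR-16-5p (adjusted p = 0.0879). Their Z ratios of -0.784 and -0.372 missed the limit. On that scale miR-195a-5p differed by -0.64 (limma adjusted p = 0.0913) and miR-497-5p by -0.067 (adjusted p = 0.825). Undetected miRNAs read 0.1 before scaling, as miR-322-5p did in SD mouse 5. Those detected on only some arrays thus add large log2 differences to the spread that the Z ratio divides by. The part of this in the Z ratios was not tested.

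**Figure D2:**
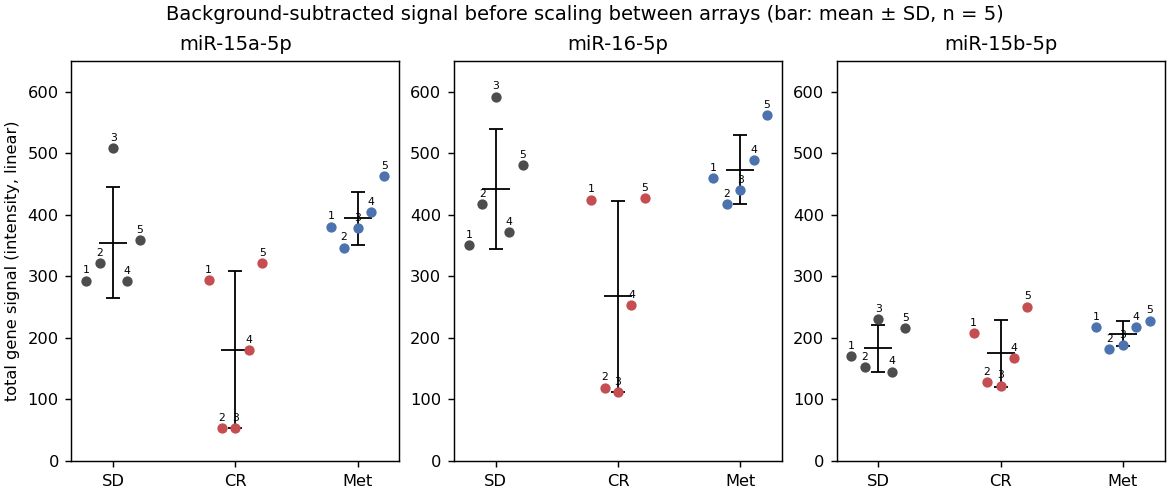
Total gene signal (linear intensity, same axis from 0 in each panel) of miR-15a-5p, miR-16-5p and miR-15b-5p in each SD, CR and Met mouse, numbered, with the mean ± SD of 5 mice. CR mice 2 and 3 read 53.8 and 53.0 for miR-15a-5p, against 292 to 509 in SD, and 128 and 122 for miR-15b-5p, against 145 to 231 in SD.

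A ratio of 2 members on the same array removes any factor that multiplies all signals of that array. The log2 ratio of miR-15a-5p to miR-15b-5p was 0.79, 1.07, 1.14, 1.01 and 0.73 in SD mice 1 to 5. It was 0.50, -1.25, -1.21, 0.12 and 0.36 in CR mice 1 to 5, and 0.80, 0.93, 1.01, 0.90 and 1.02 in Met mice 1 to 5. All 5 CR mice, including mice 1 and 5 whose levels of miR-15a-5p were in the SD range, lay below every SD and every Met mouse. The mean ratio was lower by 1.24 in CR than in SD on the log2 scale (CR minus SD, -1.24), while Met minus SD was -0.02. The same separation held for the median signals without background subtraction, where the highest CR value was 0.34 and the lowest SD value 0.50. Where the change sat depended on the scale. On log2 total gene signal miR-15a-5p differed between CR and SD by -1.34 and miR-15b-5p by -0.0941. With each array scaled to its 75th percentile they differed by -0.77 and 0.47, where the median over all tested miRNAs was 0.28. The lower ratio can thus hold a higher miR-15b-5p as well as a lower miR-15a-5p.

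The log2 ratio of miR-16-5p to miR-15b-5p ranged from 1.05 to 1.45 in SD, from 1.07 to 1.30 in Met and from -0.12 to 1.03 in CR. These groups did not overlap either, although CR mouse 1 (1.03) and SD mouse 1 (1.05) were nearly equal, and with median signals CR and SD overlapped. Among the 138 other miRNAs detected on all 15 arrays, the ratio to miR-15b-5p was lower in CR than in SD without overlap for 18.8%, and lower than in Met without overlap for 13.8%. Between CR and SD that was 26 miRNAs, among them miR-15a-5p and miR-16-5p. The ratio of miR-15a-5p to miR-16-5p changed less, with a mean log2 ratio of -0.32 ± 0.083 in SD, -0.73 ± 0.354 in CR and -0.26 ± 0.026 in Met (SD, n = 5).

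**Figure D3:**
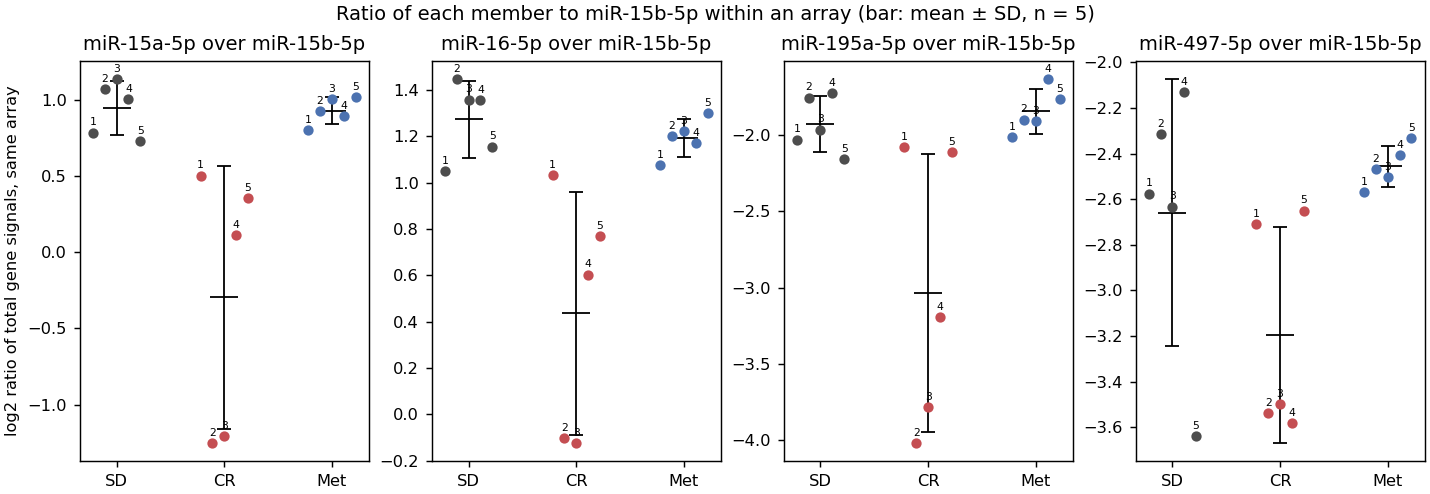
Log2 ratio of the total gene signals of miR-15a-5p, miR-16-5p, miR-195a-5p and miR-497-5p to that of miR-15b-5p on the same array (vertical axes with their own ranges), by mouse, with the mean ± SD of 5 mice. For miR-15a-5p the highest CR mouse (0.50) lies below the lowest SD (0.73) and Met (0.80) mice, and for miR-497-5p the CR and SD mice overlap.

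Between CR and Met, the same 2 members were lower in CR, miR-15a-5p by -0.676 (SE 0.176, limma adjusted p = 0.0209, Z ratio -4.35) and miR-16-5p by -0.487 (SE 0.156, limma adjusted p = 0.0274, Z ratio -3.14). In all, 16.3% of the tested miRNAs met the criteria as lower in CR than in Met. The z-scores of miR-15a-5p ranged from 1.28 to 1.49 in Met, so that all 5 CR mice (highest 1.18) lay below all Met mice, as they did for 8.99% of the tested miRNAs. For miR-16-5p the Met mice ranged from 1.39 to 1.60 and CR mouse 1 (1.41) fell among them.

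For miR-195a-5p the difference between CR and Met was -0.137 (SE 0.0457, limma adjusted p = 0.0316), and its Z ratio of -0.884 missed the limit. It met the criteria with the 75th percentile of detected probes as the scale (Z ratio -1.65, adjusted p = 0.0365) and with total gene signal (Z ratio -1.60, adjusted p = 0.0658), where miR-16-5p missed them. The difference in miR-497-5p was -0.0509 (SE 0.0248, limma adjusted p = 0.122), and that in miR-15b-5p was -0.0387 (95% interval -0.197 to 0.119, limma adjusted p = 0.688). The direction of miR-15b-5p depended on the scaling. Its CR mean was above the Met mean by 0.31 (log2, limma adjusted p = 0.0357) when the 75th percentile of detected probes set the scale. With scaled total gene signal it was above by 0.41 (log2, adjusted p = 0.00602). The median over all tested miRNAs was itself 0.19 and 0.25 higher in CR than in Met on these scales. Against SD, the CR mean of miR-15b-5p was above by 0.50 (adjusted p = 0.0117) and 0.47 (adjusted p = 0.00365) on these scales. There the median over all tested miRNAs was 0.31 and 0.28, and the Z ratios of miR-15b-5p stayed under the limit. Within slide 2, where all CR mice could be set against Met mice 4 and 5, miR-15a-5p differed by -0.742 (adjusted p = 0.228) and still met the criteria, whereas miR-16-5p differed by -0.562 (adjusted p = 0.228, unadjusted p = 0.0665) and did not. Without CR mice 2 and 3, miR-15a-5p differed from Met by -0.332 (adjusted p = 0.0998) and miR-16-5p by -0.200 (adjusted p = 0.284). The comparisons of CR with SD and with Met share the CR mice.

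Between Met and SD, none (0) of the 5 tested members met the criteria with limma. At p of 0.05 or less before adjustment the count was also 0, against 6.74% of all tested miRNAs. A pairwise test rebuilt here from the study's brief description gave 0 as well, against 7.3%. All 5 means were slightly higher in Met, where 43.8% of all tested miRNAs had a lower mean and 1.12% met the criteria. miR-15a-5p differed by 0.0908 (95% interval -0.283 to 0.465), miR-16-5p by 0.0499 (-0.281 to 0.380) and miR-15b-5p by 0.0676 (-0.0905 to 0.226). The difference was 0.0487 for miR-195a-5p (-0.0484 to 0.146) and 0.0359 for miR-497-5p (-0.0167 to 0.0886), and limma gave an adjusted p of 0.930 for each of the 5. Within slide 1, the difference in miR-16-5p was -0.000238, so its direction was not kept.

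**Figure D4:**
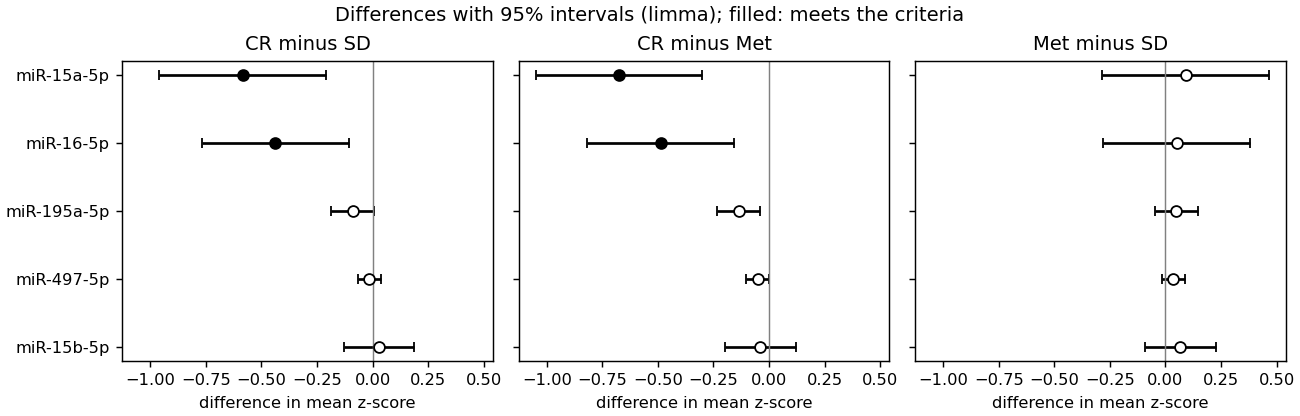
Difference in mean z-score (horizontal axes, no unit) of the 5 tested members for CR minus SD, CR minus Met and Met minus SD, with 95% intervals from limma over 15 arrays. Filled points met the criteria, which holds for miR-15a-5p (-0.585 and -0.676) and miR-16-5p (-0.437 and -0.487) in both comparisons with CR and for no member between Met and SD.

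miR-322-5p lay at the limit of detection. Its total gene signal was 9.22, 8.57, 22.2 and 10.3 in the 4 SD mice where it was detected, 8.29 and 20.1 in CR mice 1 and 5, and between 7.50 and 19.6 in 4 Met mice. On the other 5 arrays, those of SD mouse 5, CR mice 2, 3 and 4 and Met mouse 2, it was not detected. The 3 CR mice without it were those with the lowest miR-15a-5p and the lowest median total gene signal. Of the other miRNAs made beside miR-322 (miR-503, miR-351, miR-542 and miR-450), 8 arms were on the array and all 8 were undetected on every array.

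The 5 miRNAs outside the family whose z-scores were most like those of miR-16-5p over the 15 arrays were miR-20a-5p (r = 0.986), miR-30b-5p (r = 0.982), miR-26b-5p (r = 0.981), miR-192-5p (r = 0.979) and miR-106b-5p (r = 0.978). Within the family r was 0.991 for miR-15a-5p, 0.949 for miR-195a-5p, 0.7105 for miR-497-5p and 0.617 for miR-15b-5p. Of the 177 miRNAs compared, 32 had r above 0.9 and the median was 0.221. These points share the arrays and their overall signal, and CR mice 2 and 3 carry much of the range. Over the 13 arrays without them, r was 0.953 for miR-15a-5p, 0.932 for miR-20a-5p and 0.418 for miR-15b-5p.

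Other miRNAs with known roles in the cell cycle were read from lists of 2 kinds. The first held 17 repressors of cyclins and their kinases, of the let-7, miR-34 and miR-26 families and 2 others, and 12 were tested. Between CR and SD, let-7b-5p rose (difference 0.307, limma adjusted p = 0.0438) and let-7f-5p (-0.568, adjusted p = 0.0598) and miR-26b-5p (-0.559, adjusted p = 0.0390) fell, while 9 did not meet the criteria. Among all tested miRNAs 2.81% met the criteria as higher in CR and 14.6% as lower. The median difference over the 12 was -0.0328. Between CR and Met, 4 of the 12 were lower in CR, namely let-7f-5p, let-7g-5p, miR-26b-5p and miR-34a-5p, beside the 16.3% of all tested miRNAs that were lower. Between Met and SD, 0 of 12 met the criteria with limma, beside 1.12% of all tested miRNAs. Before adjustment 0 had p of 0.05 or less, beside 6.74%. With the pairwise test 3 met the criteria, beside 7.3%. All 12 means were higher in Met (median difference 0.123, against 0.00838 over all tested miRNAs).

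The second list held 12 miRNAs known to favor the cell cycle, from the miR-17 cluster and its relatives, with miR-221-3p, miR-222-3p and miR-21a-5p, and 10 were tested. miR-21a-5p (-1.34, limma adjusted p = 0.0191), miR-19b-3p (-0.489, adjusted p = 0.0191) and miR-20a-5p (-0.253, adjusted p = 0.0432) were lower in CR than in SD. No member met the criteria as higher. Among all tested miRNAs 14.6% met them as lower and 2.81% as higher. The same 3 were lower in CR than in Met, as were 16.3% of all tested miRNAs. Between Met and SD, 0 of 10 met the criteria with limma, beside 1.12% of all tested miRNAs. At p of 0.05 or less before adjustment the count was 0, beside 6.74%. With the rebuilt pairwise test it was 1, beside 7.3%. Thus miRNAs of either role were among those lower in CR beside miR-15a-5p and miR-16-5p.

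Markers of the cell types in liver were read on the same arrays. miR-122-5p, the defining miRNA of hepatocytes, was detected on all arrays, with total gene signals of 16169 to 25651 in SD, 9922 to 25039 in CR and 21639 to 25989 in Met. Its z-score did not meet the criteria between CR and SD (difference 0.217, limma adjusted p = 0.155). Between Met and SD the difference was 0.252 (limma adjusted p = 0.669, Z ratio 4.13), which did not meet them either. Summed over the 2 of 4 erythrocyte markers on the array (miR-451a and miR-144-3p), the signal ranged from 265 to 726 in SD, from 33.9 to 788 in CR and from 291 to 621 in Met, with the lowest values in CR mice 2 (33.9) and 3 (44.6). The 5 leukocyte markers summed to 108 to 194 in SD, 18.7 to 158 in CR and 111 to 217 in Met. The 2 endothelial markers summed to 620 to 886 in SD, 216 to 839 in CR and 665 to 877 in Met, and the 4 stellate cell markers to 144 to 186, 49.5 to 296 and 153 to 211. In each of these lists CR mice 2 and 3 were the lowest of the CR mice, as for miR-15a-5p. Of the 11 markers tested, 0 met the criteria between CR and SD with limma or the pairwise test. With limma, 14.6% of all tested miRNAs met them as lower in CR and 2.81% as higher. No share over all tested miRNAs is given for the pairwise test in the comparisons with CR. In limma 6 of the 11 markers had p of 0.05 or less before adjustment (2 higher and 4 lower in CR), as had 41.6% of all tested miRNAs. Between CR and Met, only miR-126-3p of endothelial cells met the criteria with limma, as lower in CR (difference -0.423, adjusted p = 0.0852). Of all tested miRNAs 16.3% did so, and with the pairwise test 0 of the 11 markers met the criteria. Between Met and SD, no marker met them with limma, beside 1.12% of all tested miRNAs. There, 1 marker, miR-122-5p, higher in Met, had p of 0.05 or less in limma before adjustment (6.74% of all tested miRNAs). It was also the 1 marker that met the criteria with the pairwise test (7.3%). The part of these cells in the levels of the family was not tested, and in whole liver fewer cells of a type cannot be told apart from less of a miRNA in each cell.

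**Figure D5:**
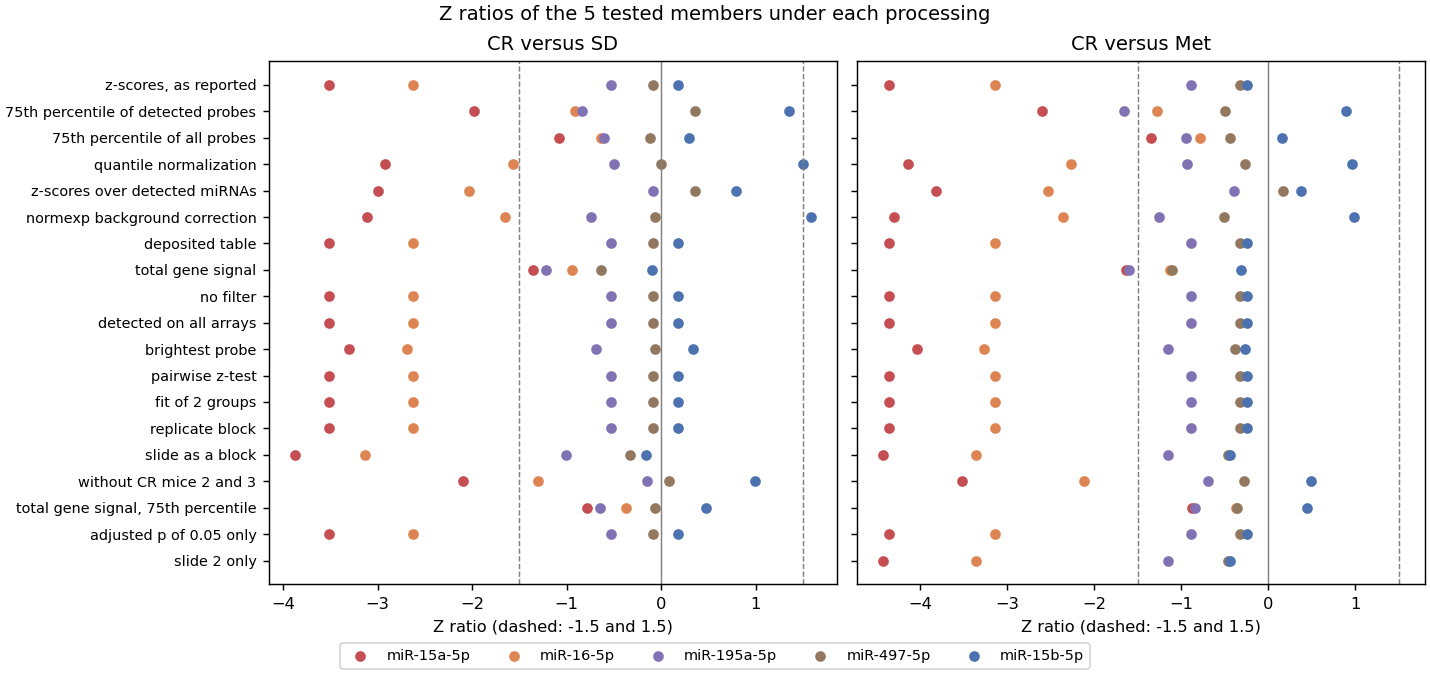
Z ratio (horizontal axes, no unit) of the 5 tested members for CR versus SD and CR versus Met, with 1 line per way of processing the arrays and dashed lines at -1.5 and 1.5. miR-15a-5p and miR-16-5p are negative on every line shown, and miR-15b-5p lies on both sides of 0. With 2 versions of total gene signal, where undetected miRNAs read 0.1 before scaling, miR-15a-5p has Z ratios of -1.36 and -0.784 in CR versus SD.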

How the data were processed

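Total liver RNA of 15 mice was labeled with Cy3 and hybridized to Agilent mouse miRNA arrays (release 15.0, annotation on mm9), which were read with Feature Extraction 11.5.1.1 according to the headers. The authors deposited each array's spot intensity without normalization between arrays, together with the software's total gene signal and flags for detection, background and outliers. The authors also deposited a score per spot, which equaled, to within 0.0005, the natural log of a spot's median signal as a z-score across its array, and 1109 of its 15744 lines held no value.

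The z-scores were computed here from the median spot signal. Outlier spots were left out (78 of 3000 member spots), and means were taken over the spots of each probe, then over the probes of each miRNA. No member spot was saturated. The 178 miRNAs detected on all arrays of a group were fitted in limma 3.58.1 (R 4.3.3), with all 15 arrays in 1 fit and variances that follow the mean, and p-values were adjusted by Benjamini-Hochberg over all 178. The limits of p, FDR and Z ratio follow the study's methods, with limma in place of its pairwise z-test. That test was rebuilt from a brief description and was an alternative. Precision is limited by having 5 arrays in a group. RefSeq (GRCm38.p6) gave names, sequences, chromosomes, strands and host genes. No coordinates are given, since its build differs from that of the arrays. Tables were handled in Python 3.11.15 with pandas 2.3.3.

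Named miRNAs were every member, miRNAs of neighboring loci, the 5 miRNAs most like miR-16-5p, the cell cycle lists, with values for at most 4 miRNAs of each, and the cell type markers. The members follow from their names alone, but the family and the lists were picked with earlier results of these data known. Alternatives were other scalings, quantile normalization, normexp (offset 50), total gene signal, other filters, the brightest probe, the pairwise z-test, fits of 2 groups, the replicate number or slide as a block, single slides and leaving out each mouse. Leaving out CR mice 2 and 3, and total gene signal scaled to its 75th percentile, were added after seeing the data.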

Additional observations from a re-analysis of the deposited data

How the results depend on the processing

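Over 34 alternative settings, the results for single members kept their direction and their side of the criteria in 451 of 490 cases, lost the call in 17, gained it in 4 and turned direction in 18, and the counts of members called stayed within 1.5 times in 88 of 98. Many of these cases could not turn direction, because other filters, tests, cutoffs and the replicate block reuse the same means. Leaving out each mouse in turn gave 2 members for CR versus SD, 0 for Met versus SD and 2 for CR versus Met throughout. Omitting a mouse of the diet not compared left the difference and Z ratio unchanged and altered only the estimate of spread. For CR versus SD, the count was 1 with the 75th percentile of detected probes, with the slide as a block and without CR mice 2 and 3, and 0 with the 75th percentile of all probes and with total gene signal as given or scaled to its 75th percentile. For CR versus Met, it was 1 within slide 2 and without CR mice 2 and 3, and 0 with the 75th percentile of all probes and with scaled total gene signal. With the 75th percentile of detected probes and with total gene signal it stayed 2, but miR-195a-5p took the place of miR-16-5p (Z ratios of -1.28 and -1.13). The member kept where 1 was left was miR-15a-5p. Several Z ratios that had not met the criteria turned sign, and the cause was not tested. miR-15b-5p in CR versus SD turned to -0.0953 with total gene signal, -0.162 with the slide as a block, -0.0251 without SD mouse 4 and -0.103 without CR mouse 5, within a range of -0.103 to 0.459 when each mouse was left out. In CR versus Met it turned to 0.894 and 0.160 with the 75th percentile of detected and of all probes, 0.966 with quantile normalization, 0.380 with z-scores over detected miRNAs, 0.988 with normexp, 0.494 without CR mice 2 and 3 and 0.445 with scaled total gene signal. miR-497-5p in CR versus SD turned to 0.356 with the 75th percentile of detected probes, 0.362 with z-scores over detected miRNAs and 0.0804 without CR mice 2 and 3, and in CR versus Met to 0.168 with z-scores over detected miRNAs. miR-16-5p in Met versus SD turned to -0.00445 with the slide as a block and within slide 1, and to -0.0409 with scaled total gene signal. Same-numbered mice deviated together (r above 0.1) in 4 of 15 pairs (range -0.562 to 0.714). Mice of different numbers were not compared, so these values cannot settle whether the replicate numbers pair the mice. With the replicate number as a block, the counts were 2, 0 and 2, and no call changed. Signal near background limits miR-195a-5p, miR-497-5p and miR-322-5p.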
